A study of Xenopus laevis with 12 samples.

Results

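The genes described here make, carry or sense dopamine: the receptor genes drd1, drd2, drd3, drd4 and drd5, the synthesis genes th and ddc, and the transporter genes slc6a3 and slc18a2. They were taken by name from 9 gene symbols, with earlier results of these data known, and 13 of the 37018 rows of the count table carry 8 of these symbols. Both homeologs, the .L and .S copies left by the genome duplication of this frog, were found for drd1, drd2, drd4, drd5 and th. For ddc (ddc.L, gene 100126640), slc6a3 (slc6a3.S, gene 108720038) and slc18a2 (slc18a2.L, gene 379730) 1 copy was matched, and drd3 was matched to no row and is not analysed here. Of the 13 rows, 12 passed the filter on low counts and were tested, and slc18a2.L did not.

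The samples were whole heads of Xenopus laevis, the African clawed frog, at NF stages 45 and 47 of the Nieuwkoop and Faber series. The control group at each stage was labelled wildtype, and the thioridazine group came from tadpoles with craniofacial malformations that had been held in 90 µM thioridazine as neurulae, between NF stages 14 and 26. Controls and exposed embryos shared the temperatures, 18 °C during the exposure window and 14 °C around it. Each of the 4 groups held 3 libraries labelled as biological replicates. The labels do not say how many heads or which clutch a library held, so the spread behind each p-value is that among these samples and may be partly technical.

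Dopamine is made from tyrosine by tyrosine hydroxylase (th), the rate-limiting enzyme, and then by aromatic amino acid decarboxylase (ddc), which also makes serotonin. The vesicular transporter slc18a2 loads it into synaptic vesicles and the transporter slc6a3 returns it to the neuron after release. Receptors of the D1 class (drd1, drd5) couple to stimulatory G proteins and raise cyclic AMP, while those of the D2 class (drd2, drd3, drd4) couple to inhibitory ones. In amphibians dopamine neurons lie in the olfactory bulb, hypothalamus and midbrain and among the amacrine cells of the retina, and dopamine holds back the melanotroph cells of the pituitary through D2 receptors. Thioridazine is a phenothiazine antipsychotic that blocks dopamine receptors.

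A library held between 11998636 and 16933777 counts. Levels are given as CPM, the counts of a gene scaled to a common library total after TMM normalisation, and 3 counts corresponded to 0.173 to 0.254 CPM. Apart from ddc.L the tested dopamine genes were thinly covered, with 11 to 73 counts in a library, and ddc.L had 164 to 262. For each of them the variance between replicates was 0.753 to 2.73 times what counting error alone gives. The median of this ratio over all tested genes was 3.51. The gene rows in the same range of total counts had a median of 2.74. Levels of different genes are not compared, since transcript lengths were not used here. Neuron genes summed to between 1814 and 2362 CPM and photoreceptor genes to between 2444 and 4332 CPM in every library, so brain and eye were present in all of them. In whole heads, fewer cells of a type and less RNA per cell cannot be told apart.

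**Figure D1:**
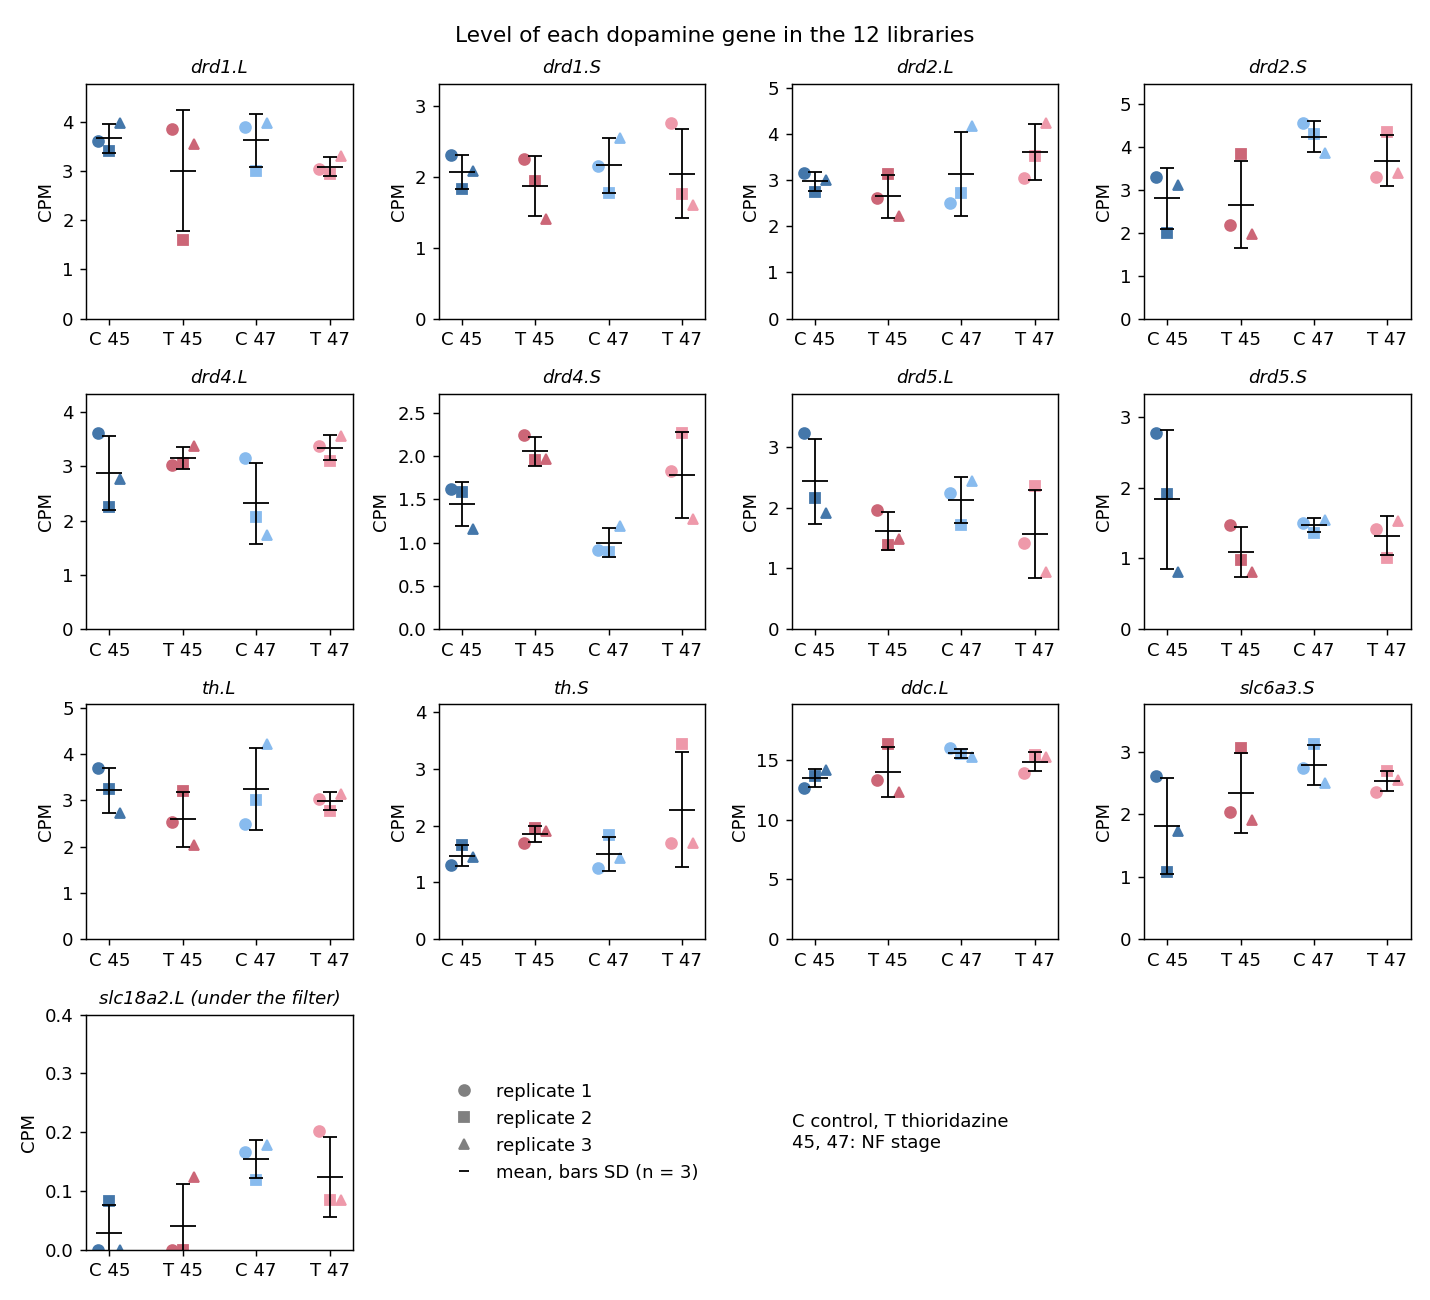
Level in CPM (vertical axis, from 0, a separate scale for each gene) of the 13 dopamine genes in the 12 libraries, by group on the horizontal axis (C control, T thioridazine, NF stage 45 or 47). Points are libraries, with the shape giving the replicate number, and bars are the mean and SD of 3 libraries. Treated and control libraries of drd4.S do not overlap at either stage. Of all tested genes 9.55% did not overlap at stage 45 and 9.6% at stage 47.

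The first question was whether heads of thioridazine tadpoles held other levels of these transcripts than control heads of the same stage. None of the 12 tested genes passed at stage 45, at stage 47 or over both stages together (edgeR, Benjamini-Hochberg adjusted p of 1 at each stage and at least 0.395 over both). DESeq2 called none of the 12 at stage 47 or over both stages, and at stage 45 it adjusted 6 of them, of which it called none, and gave no adjusted p for the other 6. In the edgeR fit 0% of the 27050 genes tested were called at stage 45, 0.0739% at stage 47 and 0.144% for the mean of both stages. With the replicate number as a block within each stage, 268, 171 and 599 genes were called, none of them a dopamine gene. At an unadjusted p under 0.05 there were 0 of 12 dopamine genes at stage 45 (5.33% of all genes), 1 at stage 47 (drd4.S, 3.52% of all genes) and 2 over both stages (drd4.S and drd5.L, 6.9% of all genes). The median log2 fold change of the 12 was -0.12 at stage 45 and -0.10 at stage 47, beside 0.015 and 0.004 for all genes. Standard errors ran from 0.13 for ddc.L to 0.40 for drd5.S, and over all tested genes their median was 0.18 at both stages. Genes of neurons in general, the cells that should carry most of these transcripts, were lower in 24 of 25 rows at stage 45 (median log2 fold change -0.21) and in 22 of 25 at stage 47 (median -0.14), and none was called. Over both stages 12 of the 25 were lower at an unadjusted p under 0.05, against the 6.9% of all genes in either direction. They summed to 1814 to 2197 CPM in treated and 2181 to 2273 CPM in control heads of stage 45. At stage 47 the sums were 1867 to 2300 CPM and 2210 to 2362 CPM. A separate list, of neurons of other transmitters, was lower in 12 of 13 rows at stage 45 (median log2 fold change -0.23). At stage 47 that list was higher in 7 and lower in 6 of 13 rows (median 0.002), and none was called. The part of these neuron genes in the values of the dopamine genes was not tested.

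Of the D1 class, drd1.L (gene 108710578) measured 3.62, 3.41 and 3.99 CPM in control replicates 1, 2 and 3 of stage 45 and 3.87, 1.60 and 3.57 CPM in the treated ones. Stage 47 gave 3.91, 3.01 and 3.99 CPM in controls and 3.04, 2.94 and 3.31 CPM in treated heads. The groups overlapped at both stages, and treated replicate 2 of stage 45 was the lowest library of all 12. The log2 fold change was -0.29 (95% interval -0.89 to 0.31) at stage 45 and -0.23 (-0.83 to 0.37) at stage 47. The copy drd1.S (gene 108712498) lay between 1.41 and 2.77 CPM in all libraries, with log2 fold changes of -0.15 (SE 0.29) and -0.07 (SE 0.29).

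The other D1-class receptor gene of the named set, drd5, had the lowest fold changes of the dopamine genes over both stages. For drd5.L (gene 108698033) the control libraries of stage 45 held 3.23, 2.16 and 1.91 CPM and the treated ones 1.97, 1.39 and 1.48 CPM. At stage 47 they held 2.25, 1.71 and 2.44 CPM in controls and 1.42, 2.35 and 0.93 CPM in treated heads. The groups overlapped at each stage, through control replicate 3 and treated replicate 1 at stage 45 and through treated replicate 2 at stage 47. Over both stages drd5.L stood at 0.70 times the control level (95% interval 0.491 to 0.997, adjusted p = 0.718), and at 0.666 and 0.736 times at stages 45 and 47. For drd5.S (gene 108705891) the log2 fold change was -0.73 (SE 0.40) at stage 45, where control replicate 1 held 2.77 CPM and control replicate 3 held 0.809 CPM. Without control replicate 1 it was -0.30 and without control replicate 3 it was -1.12, and that of drd5.L was -0.34 without control replicate 1. At stage 47 the value of drd5.S was -0.15 (SE 0.40). All 4 rows of drd1 and drd5 had negative values at both stages and none passed. A further D1-class row outside the named set, drd1c.L, had positive values (0.30 at stage 45 and 0.06 at stage 47). With both copies of drd1c summed, the values were 0.011 and 0.008. Without treated replicate 3 of stage 47, that of drd1c.L at stage 47 was -0.06. Leaving out 1 library turned 4 of the 8 values of drd1 and drd5 to between 0.00 and 0.08. These were drd1.L at stage 45, drd1.S at both stages and drd5.S at stage 47.

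Of the D2 class, drd2 is the receptor that antipsychotic drugs are best known for blocking. The level of drd2.L (gene 378584) was 3.15, 2.75 and 3.01 CPM in control and 2.60, 3.14 and 2.21 CPM in treated heads of stage 45. It was 2.49, 2.72 and 4.17 CPM in control and 3.04, 3.53 and 4.24 CPM in treated heads of stage 47. The groups overlapped at both stages, and the difference had opposite signs, -0.17 (SE 0.26) at stage 45 and 0.19 (SE 0.25) at stage 47 on the log2 scale. For drd2.S (gene 378597) the values were -0.09 (SE 0.28) and -0.20 (SE 0.27). Over both stages the 95% interval ran from 0.773 to 1.32 times the control level for drd2.L and from 0.674 to 1.21 times for drd2.S, so a difference within these bounds could not be resolved with 3 libraries a group.

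The receptor gene drd4 had the highest fold changes at each stage, in its copy drd4.S (gene 108715168). Control heads of stage 45 held 1.62, 1.58 and 1.16 CPM of drd4.S and treated heads 2.25, 1.95 and 1.97 CPM. At stage 47 controls held 0.915, 0.886 and 1.19 CPM and treated heads 1.82, 2.27 and 1.27 CPM. All treated libraries lay above all controls of their stage, from 11 to 21 counts a library in controls and 15 to 32 in treated heads. The log2 fold change was 0.51 (95% interval -0.10 to 1.12) at stage 45 and 0.83 (0.19 to 1.48) at stage 47, each with an adjusted p of 1. Over both stages drd4.S was 1.59-fold higher (95% interval 1.17 to 2.17), ranked 390 of 27050 genes by p, and did not pass (adjusted p = 0.395). Groups that do not overlap were common: 9.55% of all tested genes at stage 45 and 9.6% at stage 47, beside 2 of 12 dopamine genes (drd4.S and th.S) and 1 of 12 (drd4.S). The share of all genes without overlap at both stages was not worked out.

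The other copy, drd4.L (gene 108713876), measured 3.62, 2.25 and 2.78 CPM in control and 3.02, 3.07 and 3.38 CPM in treated heads of stage 45. At the later stage the level was 3.16, 2.07 and 1.73 CPM in controls and 3.38, 3.11 and 3.56 CPM in treated heads. Control replicate 1 of stage 45 was the highest of its 6 libraries, and at stage 47 control replicate 1 alone overlapped the treated ones. The log2 fold change was 0.13 (SE 0.26) at stage 45 and 0.55 (SE 0.26, adjusted p = 1) at stage 47. With both copies summed, drd4 had a log2 fold change of 0.45 over both stages (adjusted p = 0.362). Photoreceptors, which carry D4-like receptors in several vertebrates, had markers that were higher in 16 of 18 rows at stage 47 and in 4 of 18 at stage 45. Of these, the cone opsin kinase gene grk7.L was higher in treated libraries of stage 47, at 43.5 ± 3.18 CPM against 19.7 ± 2.91 CPM in controls (edgeR, adjusted p = 0.00694, and 0.0551 without control replicate 1 of that stage). Its stage 45 levels were 33.0 ± 4.22 CPM in control and 45.2 ± 3.51 CPM in treated libraries. Between the stages grk7.L thus fell in controls (log2 fold change -0.74, edgeR adjusted p = 0.00644) and changed little in treated heads (-0.06). The difference between these changes, 0.69, did not pass in the same edgeR fit or in DESeq2 (adjusted p = 0.276). The 18 rows summed to between 3785 and 4196 CPM in treated and between 2444 and 3994 CPM in control libraries of stage 47. At stage 45 the sums were 3013 to 3959 CPM against 3656 to 4332 CPM. The part of photoreceptors in the drd4 values was not tested.

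**Figure D2:**
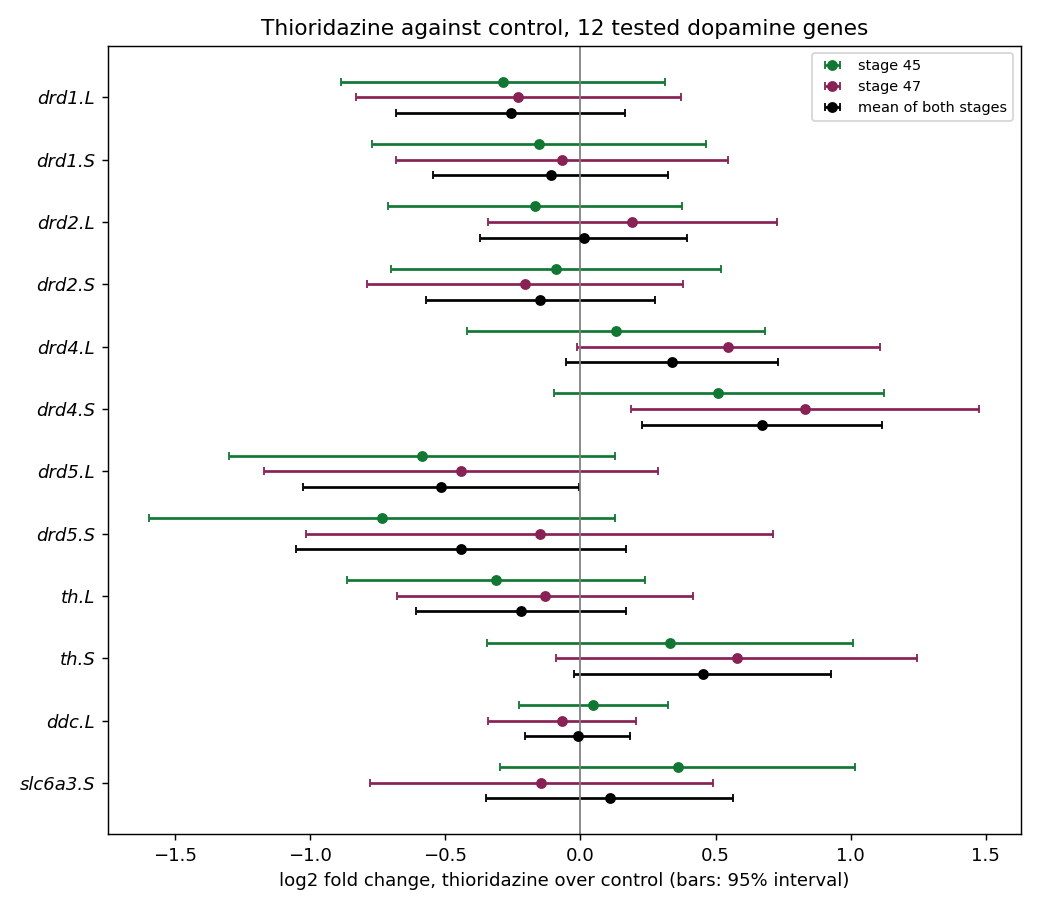
Log2 fold change of thioridazine over control (horizontal axis) for the 12 tested dopamine genes at stage 45, at stage 47 and for the mean of both stages; bars are 95% intervals from the edgeR fit. The intervals of drd4.S at stage 47 and over both stages and of drd5.L over both stages leave out 0, and no gene passed after adjustment over 27050 genes.

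The balance of the receptor classes was also followed within each library. Of the counts of the 8 receptor rows of the named set, those of drd1 and drd5 were taken as the D1-class share. They took 50.5, 52.1 and 46.6% in control replicates 1, 2 and 3 of stage 45 and 48.7, 33.1 and 43.2% in the treated ones. At stage 47 they took 46.8, 44.0 and 49.0% of the control counts and 42.8, 37.8 and 37.2% of the treated ones. The means were 49.7 ± 2.81% against 41.7 ± 7.95% at stage 45 and 46.6 ± 2.5% against 39.3 ± 3.09% at stage 47 (SD, n = 3). The groups overlapped at stage 45 and did not at stage 47. In 6 of 6 same-numbered pairs the share was lower in treated heads. For stage 47 any pairing would give that, since the groups did not overlap, and the pairing by number is an assumption. At stage 47 the D1-class rows summed to 9.81, 7.85 and 10.5 CPM in controls. Treated heads held 8.64, 8.06 and 7.37 CPM of them, with overlap. For the D2-class rows the sums were 11.1, 9.98 and 11 CPM in controls and 11.5, 13.3 and 12.5 CPM in treated heads, without overlap. Of all tested genes, taken singly, 9.6% did not overlap at that stage. The share was worked out after the single genes had been seen, rests on 215 to 361 receptor counts a library, and was given no test. The rows of drd1c, also of the D1 class, were not counted in it. The mean of drd1c.L was higher in treated heads at both stages (0.756 against 0.926 CPM and 0.969 against 1.02 CPM, control against treated). That of drd1c.S, which was under the filter, was lower (0.229 against 0.0699 CPM and 0.158 against 0.13 CPM).

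Among the synthesis genes, th.L (gene 108713461) measured 3.69, 3.25 and 2.72 CPM in control and 2.53, 3.21 and 2.03 CPM in treated heads of stage 45. Controls of stage 47 held 2.49, 3.01 and 4.23 CPM and 3.04, 2.77 and 3.14 CPM in treated heads. The groups overlapped, with log2 fold changes of -0.31 (SE 0.26) and -0.13 (SE 0.26). Its homeolog th.S (gene 100037248) had values of the opposite sign. It stood at 1.31, 1.66 and 1.45 CPM in control and 1.69, 1.95 and 1.91 CPM in treated heads of stage 45. Stage 47 gave 1.25, 1.83 and 1.43 CPM in controls and 1.69, 3.44 and 1.70 CPM in treated heads, where replicate 2 was far above the others. The treated libraries lay above the controls at stage 45 and overlapped them at stage 47, with log2 fold changes of 0.33 (SE 0.32) and 0.58 (SE 0.31) that did not pass. With both copies summed, th had a log2 fold change of -0.08 at stage 45 and 0.14 at stage 47 (adjusted p = 1 for each).

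A second tyrosine hydroxylase gene, th2.L (gene 108710245), is no member of the named set and was looked up after the values were seen. Its level was 1.31, 1.5 and 1.45 CPM in control and 0.492, 0.906 and 1.05 CPM in treated heads of stage 45, without overlap. Of all tested genes 9.55% did not overlap at that stage. The log2 fold change of th2.L there was -0.78 (SE 0.40), which did not pass (adjusted p = 0.979). For stage 47 the values were 1.16, 0.886 and 1.07 CPM and 0.473, 0.924 and 1.53 CPM, with overlap, and any library held 7 to 25 counts. The transporter gene slc18a1.S, looked up in the same step, lay between 0.509 and 4.49 CPM in all libraries. Its groups overlapped at both stages, with log2 fold changes of -0.18 (SE 0.43) and -0.59 (SE 0.46) that did not pass.

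The decarboxylase gene ddc.L was the most deeply counted of the set and the most tightly bounded. Control heads held 12.7, 13.7 and 14.2 CPM and treated heads 13.3, 16.4 and 12.3 CPM at stage 45. At stage 47 controls held 16.0, 15.5 and 15.2 CPM and treated heads 13.9, 15.4 and 15.3 CPM. Treated and control libraries overlapped at both stages. The treated level of ddc.L was 1.03 times the control level at stage 45 (interval 0.855 to 1.25), 0.954 times at stage 47 (0.789 to 1.15) and 0.993 times over both stages (0.868 to 1.14). Kidney, gut and liver genes, organs that also use ddc, did not pass: 8 of 9 rows were higher at stage 45 and 8 of 9 lower at stage 47. They summed to between 61.9 and 203.8 CPM over all libraries, the liver gene alb.S was listed at 0 in at least 1 library, and their part in the ddc.L values was not tested.

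The dopamine transporter gene slc6a3.S measured 2.62, 1.08 and 1.73 CPM in control and 2.04, 3.07 and 1.91 CPM in treated heads of stage 45. Stage 47 values were 2.74, 3.13 and 2.50 CPM in controls and 2.36, 2.69 and 2.54 CPM in treated heads. The groups overlapped, with log2 fold changes of 0.36 (SE 0.31) and -0.14 (SE 0.30). The vesicular transporter gene slc18a2.L was at the edge of detection, with 0, 1 and 0 counts in the control libraries of stage 45 and 0, 0 and 2 counts in the treated ones. The stage 47 libraries had 2, 2 and 3 counts (control) and 3, 1 and 1 counts (treated). Summed over a group that is 1, 2, 7 and 5 counts, with exact Poisson 95% intervals of 0.0253 to 5.57, 0.242 to 7.22, 2.81 to 14.4 and 1.62 to 11.7 for counting error alone. No library exceeded 3 counts, so no fold change is given, and a difference between treated and control heads was not detectable at this depth. Between the stages slc18a2.L did not overlap in controls, as in 25.1% of all tested genes, and did overlap in treated heads. It was under the filter, so neither was tested.

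The homeologs of th had fold changes of opposite sign. The share of the .L copy was therefore compared for each of the 5 genes with both copies, after the values had been seen. The p-values for th do not allow for a comparison prompted by the same values. For th the .L copy took 73.8, 66.1 and 65.3% of the counts in control and 60.0, 62.2 and 51.6% in treated heads of stage 45. The stage 47 shares were 66.7, 62.2 and 74.7% for controls against 64.3, 44.6 and 64.9% for treated heads. The difference, treated minus control, was -10.5 percentage points at stage 45, where the groups did not overlap, and -9.94 points at stage 47, where they did. An exact two-sided permutation test within stages, whose smallest possible p is 0.005, gave p = 0.02, and 0.1 when adjusted over the 5 genes, so the difference did not pass. In 6 of 6 same-numbered pairs the share was lower in treated heads, which at stage 45 any pairing would give, since the groups did not overlap. Exact sign flips of the pairs gave p = 0.0312, the smallest they can give, and 0.156 adjusted over the 5 genes. Since even the smallest p in a single gene does not pass after adjustment, the sign flips cannot decide the question. For drd1, drd2, drd4 and drd5 the mean difference lay between -4.51 and 3.15 points (adjusted exact permutation p of 0.65 to 0.66). How the counting assigned reads that match both copies is not stated, which makes the split between homeologs uncertain.

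**Figure D3:**
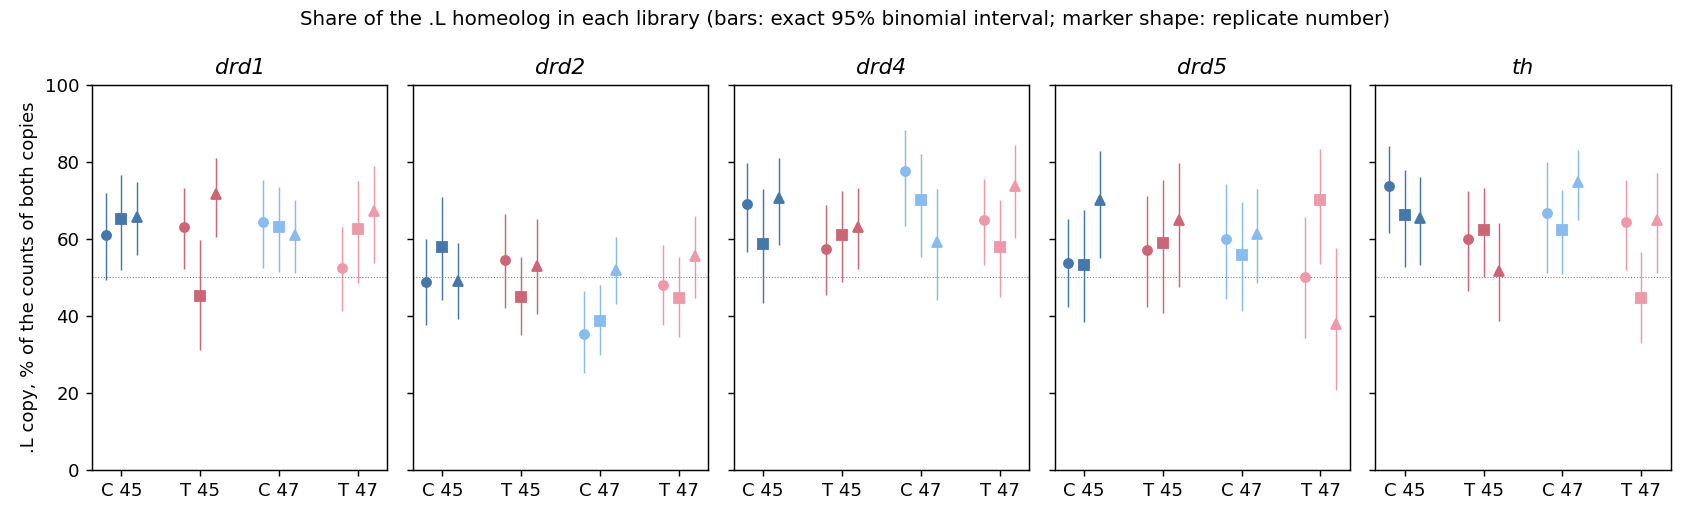
Share of the .L copy in the counts of both homeologs (vertical axis, percent) in each library for drd1, drd2, drd4, drd5 and th, by group (C control, T thioridazine, stage 45 or 47). Bars are exact 95% binomial intervals (Clopper-Pearson, counting error only) and shapes give the replicate number; for th the treated libraries of stage 45 sit between 51.6 and 62.2% and the controls between 65.3 and 73.8%.

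The second question was how the same transcripts differed between stage 45 and stage 47. None of the 12 genes passed in controls, where 6.24% of all genes were called, or in treated heads, where 4.86% were (edgeR). DESeq2 called none, with 11 and 6 of the 12 given an adjusted p. No dopamine gene reached an unadjusted p under 0.05 in either, against 21.3% of all genes in controls and 19.6% in treated heads. The smallest values in controls were those of drd2.S and slc6a3.S. In controls drd2.S went from 3.31, 2.00 and 3.12 CPM at stage 45 to 4.57, 4.31 and 3.87 CPM at stage 47, without overlap (log2 fold change 0.59, SE 0.28, adjusted p = 0.242). In treated heads it went from 2.18, 3.83 and 1.97 CPM to 3.31, 4.37 and 3.39 CPM, with overlap (0.47, SE 0.28, adjusted p = 0.39, and 0.835 without treated replicate 2 of stage 45, adjusted p = 0.119). For slc6a3.S the change was 0.62 in controls (SE 0.30, adjusted p = 0.259) and 0.12 in treated heads (SE 0.30). Without control replicate 1 of stage 45, the change of slc6a3.S in controls was 0.95 (adjusted p = 0.112).

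Of the others, ddc.L was 1.15-fold higher at stage 47 in controls (interval 0.952 to 1.39) and its stages did not overlap there. Groups without overlap held 25.1% of all genes between the stages in controls, beside 2 of 12 dopamine genes, and 25.2% in treated heads, beside 0 of 12. The signs were 7 higher and 5 lower in controls (median 0.03) and 10 higher and 2 lower in treated heads (median 0.13), with -0.01 as the median of all genes in both. The difference between the treatment effects of the stages passed for none of the 12, nor for any other gene (0% called, and 2.13% at an unadjusted p under 0.05, among them 0 of the 12). For no gene of the set did neighbours in the order of the 4 group means differ without overlap. The highest group mean was 1.15 times the lowest for ddc.L and 2.06 times for drd4.S, the range of the 12 tested genes.

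**Figure D4:**
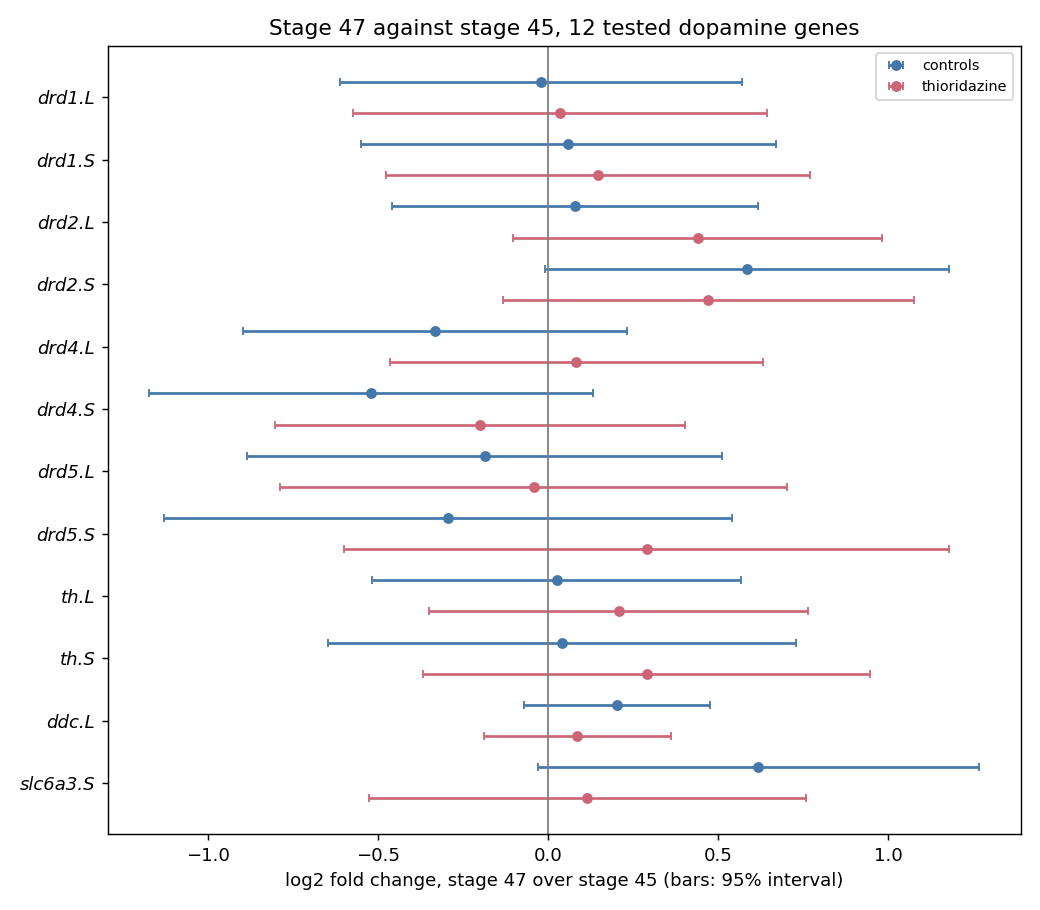
Log2 fold change of stage 47 over stage 45 (horizontal axis) in controls and in thioridazine heads for the 12 tested dopamine genes; bars are 95% intervals from the edgeR fit. All 24 intervals include 0, and drd2.S and slc6a3.S have the highest values in controls.

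The genes most like each dopamine gene over the 12 libraries were taken by Pearson's r of log2 CPM among 20007 named genes. They serve as a description of libraries that share their depth and stage. Each r is picked as the highest of that many, and what unrelated genes would give was not worked out. The highest values were those of ddc.L with reln.L, the gene of the extracellular guidance protein reelin (r = 0.963), and of drd1.L with tmem178a.L (0.946). Next for drd1.L came the gene of the extracellular matrix protein fibulin, fbln5.S (0.899), and kctd6.L (0.894). Next for ddc.L came the neuronal vesicle gene nsg2.L (0.932) and myo5c.L (0.931). For drd2.S the closest were cntn1.S, a contactin of axons (0.935), sez6l.L (0.921) and the protocadherin gene pcdh17.S (0.920). For slc6a3.S they were the neurokinin receptor gene tacr3.S (0.914) and the neuritin gene nrn1.S (0.910). For drd4.S they were cyp26c1.L, of a retinoic acid breaking enzyme (0.853), the cone opsin kinase gene grk7.L (0.840) and rab1a.S (0.835). The closest gene was fndc4.L for drd1.S (0.918), nell2.L for drd2.L (0.891) and nrn1l.S for drd4.L (0.892). It was fsd2.L for drd5.L (0.924), pnpla2.S for drd5.S (0.877), capn6.L for th.L (0.919) and clcn7.L for th.S (0.874). Between homeologs, pairs fixed by name rather than picked as the highest of many, r was 0.445 for drd2, 0.433 for drd4, 0.436 for drd5, 0.164 for drd1 and -0.238 for th.

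Around the dopamine genes, the G proteins, cyclases, phosphodiesterases, arrestins and channels downstream of the receptors were listed as 45 tested rows. None was called at either stage between thioridazine and control, 29 were lower at stage 45 (median log2 fold change -0.09) and 36 at stage 47 (median -0.08). The member with the smallest p was rgs4.L, a regulator that shortens G protein signals, at 46.1 ± 4.11 CPM in controls of stage 45 and 34.5 ± 4.87 CPM in treated heads (SD, n = 3). It did not pass (adjusted p = 0.614), and passed with the replicate number as a block within each stage (0.0194). Its homeolog rgs4.S stood at 36.8 ± 5.28 CPM in controls and 33.9 ± 8.32 CPM in treated heads of stage 45. With both copies summed, rgs4 had a log2 fold change of -0.28 at that stage (edgeR, adjusted p = 0.844). Between stages, its relative rgs2 rose in both copies: rgs2.L from 63.5 ± 2.95 to 116 ± 12.9 CPM in controls and from 50.3 ± 2.52 to 114 ± 15.2 CPM in treated heads (edgeR, adjusted p = 0.0016 and 0.000474). The copy rgs2.S rose 1.93-fold and 1.9-fold (adjusted p = 0.00298 and 0.00342). The stimulatory G protein gene gnas.S, through which D1-class receptors signal in most tissues, fell in treated heads from 46.6 ± 1.93 to 31.4 ± 2.45 CPM (adjusted p = 0.0061). In controls gnas.S went from 42.7 ± 1.67 to 35.3 ± 3.07 CPM and did not pass (adjusted p = 0.114, or 0.0482 in the fit that adds a replicate block).

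Of the genes for the cofactor tetrahydrobiopterin, which tyrosine hydroxylase needs, none of 9 was called in either treatment contrast, and 6 were higher at stage 45 and 5 at stage 47. Of the breakdown and uptake genes none of 10 was called between treatments. In the fit with a block within each stage, aldh1a1.S passed over both stages (log2 fold change 0.35, adjusted p = 0.04, against 0.228 without the block), and with its homeologs summed the value was 0.105. The aldehyde dehydrogenase gene aldh2.L rose from 136 ± 23.5 to 211 ± 2.71 CPM between stages in controls and from 135 ± 11.1 to 220 ± 15.9 CPM in treated heads (adjusted p = 0.0104 and 0.00657). A further receptor of the D1 class, drd1c, was matched in both copies, of which drd1c.S was under the filter. The other copy, drd1c.L, stood at 0.756 ± 0.217 and 0.926 ± 0.305 CPM in control and treated heads of stage 45. At stage 47 drd1c.L measured 0.969 ± 0.122 and 1.02 ± 0.146 CPM. The other receptors that phenothiazines bind, those of serotonin, adrenaline, histamine and acetylcholine, numbered 23 tested rows. None was called, with 16 lower at stage 45 (median -0.19) and 15 lower at stage 47 (median -0.03).

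Pituitary cells that dopamine controls were represented by the melanotroph and corticotroph hormone gene pomc. It did not pass at either stage. From control to treated heads, pomc.L stood at 33.3 ± 3.79 and 48.4 ± 4.92 CPM at stage 45 and at 45.3 ± 9.81 and 58.2 ± 4.83 CPM at stage 47. The copy pomc.S stood at 27.7 ± 5.9 and 42.1 ± 7.7 CPM and at 39.2 ± 5.7 and 58.5 ± 14.9 CPM. Over both stages the log2 fold change was 0.45 for pomc.L and 0.59 for pomc.S (adjusted p = 0.155 and 0.25). With the block within each stage both passed over both stages (0.0141 and 0.0152), as they did in DESeq2 (0.0277 and 0.0302). Of the 10 pituitary rows tested, pomc included, 6 were lower at stage 45 and 8 at stage 47. None was called in the edgeR fit without a block.

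Markers of cells that could carry these transcripts were followed beside them. Among the neuron genes the neurofilament gene nefh.L had the smallest p over both stages (log2 fold change -0.59, adjusted p = 0.0791). It passed in DESeq2 (0.00268) and in both fits that block by replicate, over the stages (0.0204) or inside each (0.00153). Noradrenaline cells also use th and ddc, and their genes summed to 18.4 to 21.3 CPM in treated and to 20.2 to 23.1 CPM in control libraries of stage 45, with 6 of 8 rows lower at each stage. At stage 47 they summed to 17.4 to 20.8 CPM against 18.7 to 23.2 CPM. Genes of the serotonin cell list summed to 89.6 to 92.8 CPM against 94.2 to 103.7 CPM at stage 45, with 5 of 8 rows lower, and to 88.3 to 99.3 CPM against 89.3 to 92.3 CPM at stage 47. These sums include gata2 and gata3, whose rows averaged 11.9 to 27.0 CPM in controls of stage 45. The rows of tph1, tph2 and slc6a4 averaged 0.483 to 11.1 CPM there. Transcription factors and signals of dopamine neurons were higher in 12 of 30 rows at stage 45 and in 21 of 30 at stage 47, with medians of -0.01 and 0.10. Amacrine and inner retina genes were higher in 5 of 17 rows and in 12 of 17, with medians of -0.08 and 0.08. Forebrain genes were higher in 15 and 12 of 25 rows, with medians of 0.02 and -0.01. No row of these lists was called between treatments in the edgeR fit without a block. The part of these lists in the values of the dopamine genes was not tested.

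In the edgeR fit without a block, calls between thioridazine and control among all the lists followed fell on pigment cell genes and on grk7.L. Of the pigment rows 4 of 10 were called at stage 47 and 7 of 10 over both stages, beside 0.0739% and 0.144% of all genes. Other fits also called rows of other lists, among them nefh.L, pomc.L, pomc.S, rgs4.L and aldh1a1.S, as given above. The pigment genes called at stage 47, all higher in treated than in control heads, were those of the melanin enzymes dct.L and tyrp1.L, of the melanosome protein pmel.L and of the endothelin receptor ednrb2.S, with log2 fold changes of 1.02 to 1.09. Leaving out any 1 of the control libraries of stage 47 ended all 4 of these calls (adjusted p = 0.0551 to 0.207), with log2 fold changes of 0.93 to 1.17. Over both stages the same 4 rows and mlana.L passed with each library left out in turn. The other rows called over both stages, slc24a5.L (log2 fold change 0.79) and pmel.S (1.02), lost the call without 8 and 7 of the 12 libraries (adjusted p = 0.0536 to 0.122). Between stages, 6.24% of all genes were called in controls. Called rows of marker lists that rose there were 3 of 12 glia rows and 1 of 7 skin secretory and ionocyte rows. Those that fell were 4 of 18 photoreceptor, 3 of 17 amacrine and inner retina and 2 of 25 forebrain rows. So did 1 of 8 serotonin cell rows and 1 of 13 rows of neurons of other transmitters. Of 25 neuron rows 1 rose and 2 fell, and of 30 rows of dopamine neuron regulators 1 rose and 1 fell. The regulator list and the skin list share the foxa1 rows, and the row that rose is the same foxa1 row in each. In controls the gata2 and gata3 rows of the serotonin list had lower means at stage 47, and its tph1, tph2 and slc6a4 rows higher ones.

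**Figure D5:**
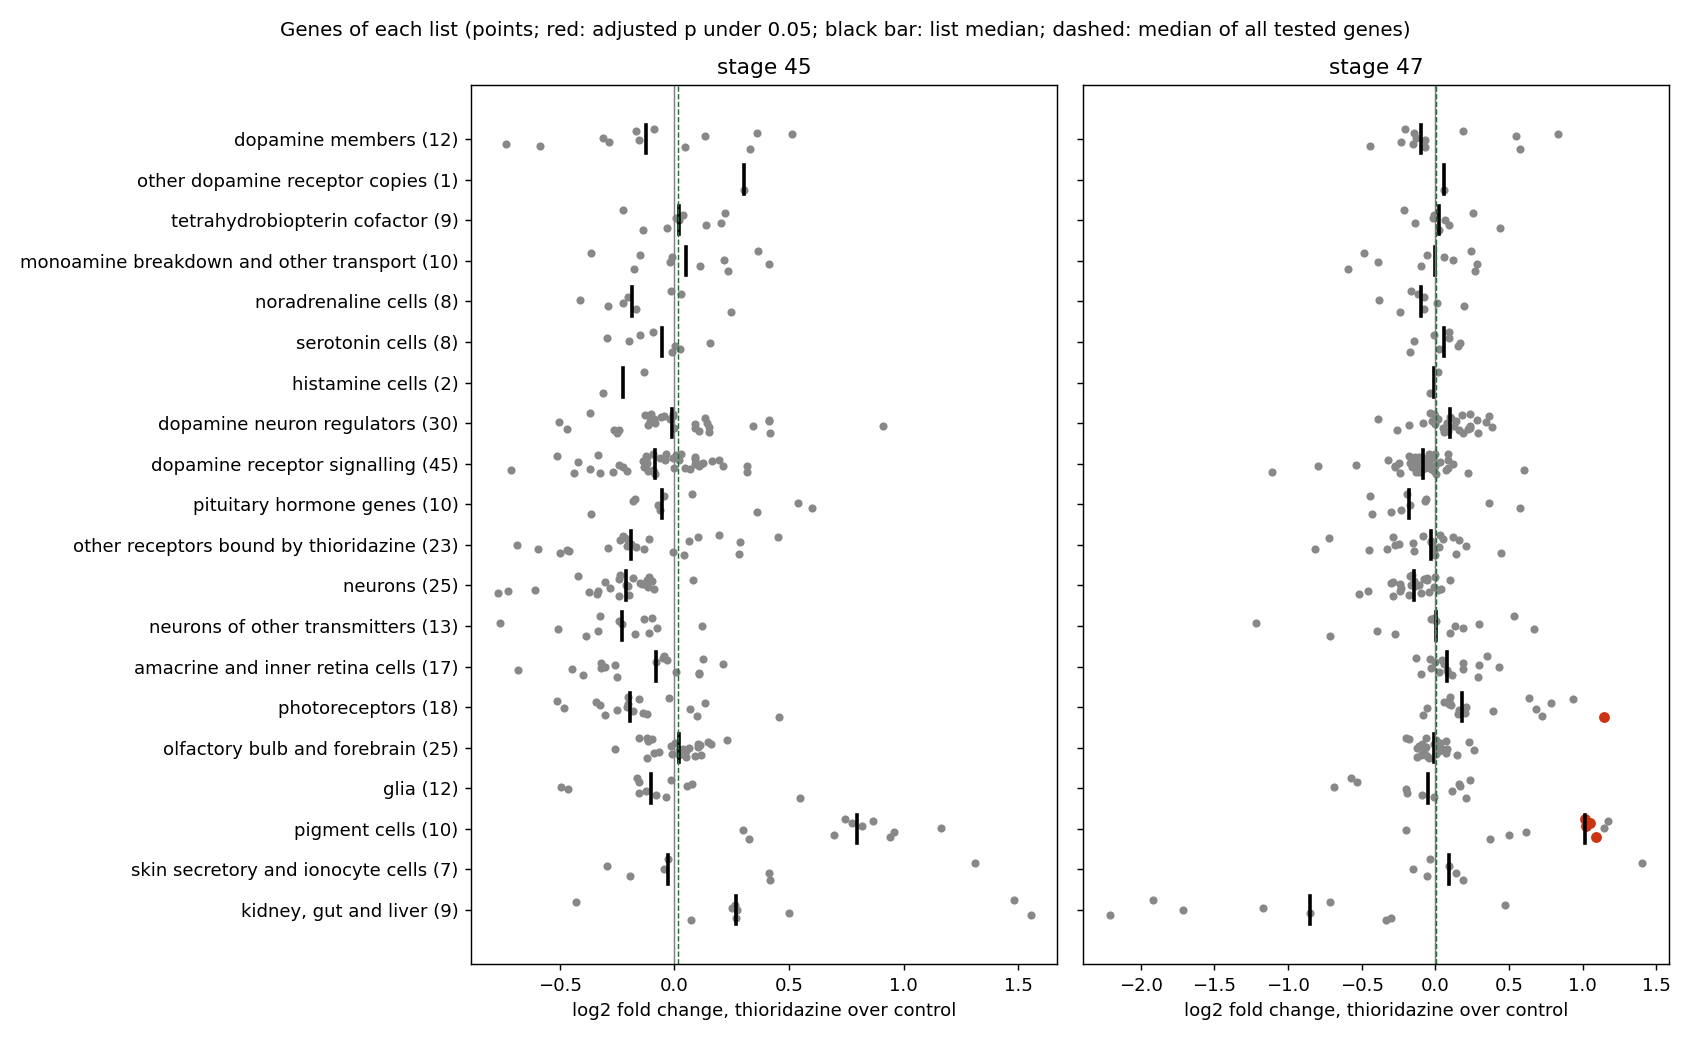
Log2 fold change of thioridazine over control (horizontal axis; the 2 panels have different ranges) for every tested gene of the 20 lists, at stage 45 (left) and stage 47 (right), with the number of tested rows in brackets. Black bars are list medians, the dashed line is the median of all 27050 genes and red points are called genes; the dopamine genes are the top row, with no red point.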

How the data were processed

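Each of 12 libraries came with 1 deposited file of raw counts, the number of reads the authors assigned to a gene. Per the labels' protocols, libraries came from a kit that does not mark strand and were read as single 100 bp reads, so reads of a gene and of an overlapping antisense gene cannot be told apart. Per the submitters' processing notes Trimmomatic, HISAT2, HTSeq and DESeq2 were used. No source used here gives their versions, the build or the annotation. Names came from the Xenopus_laevis_v10.1 gene table, which matched 33597 identifiers and left 3421 unnamed.

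All 12 libraries entered a single edgeR 4.0.16 quasi-likelihood fit in R 4.3.3 (TMM, filterByExpr, robust, 1 coefficient a group; tested on simulated data), which tested 27050 genes in 6 contrasts with Benjamini-Hochberg adjustment, called under 0.05. Log2 CPM used a prior count of 2. Exact intervals are at 95% and the floor is 3 counts; they cover counting error only. Figures were drawn with matplotlib 3.10.9.

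Alternatives were DESeq2 1.42.0, scaling by RLE or by the upper quartile, a fit of unfiltered genes, only the groups compared, homeologs summed, a replicate block and each library left out. Same-numbered control and treated samples deviated together (correlations of 0.336, 0.586 and 0.326 in stage 45 heads, and of 0.18, 0.225 and 0.471 for the later stage). Each exceeds 0.1, so the numbers were taken to pair them within a stage. Samples with different numbers were not correlated for comparison. The pairing, on which the block within each stage rests, is therefore an assumption. The main fit, which gave the intervals and standard errors, held no replicate block. Between the stages, same-numbered samples correlated at 0.181, 0.014 and 0.352 in controls and at 0.562, 0.04 and 0.087 in treated heads. Not all of these exceed 0.1, and the replicate block over the stages assumes such pairs.

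The named genes were every row of the member symbols, from each other list the rows called between treatments or the row with the smallest p, and the 3 genes most correlated with each member. The rule also allowed up to 4 called rows of each list between stages, of which those of the signalling and breakdown lists are named, and a list without calls may stay unnamed. The members and lists were chosen with earlier results of these data known.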

Additional observations from a re-analysis of the deposited data

How the results depend on the processing

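The number of dopamine genes called was 0 in all 6 contrasts under every alternative run, the replicate block included. Of 1392 alternative values of the 12 genes, 0 passed (DESeq2 gave 24 no adjusted p, 11 of them for the difference between treatment effects and 6 each at stage 45 and between stages in treated heads), the smallest adjusted p was 0.112, and 67 changed sign, each from a log2 fold change of at most 0.33 in size. Over its alternatives drd4.S kept a log2 fold change of 0.64 to 1.02 at stage 47 and of 0.45 (homeologs summed) to 0.77 over both stages, with a smallest adjusted p of 0.403 and 0.114, the latter with the replicate block within each stage. For the share of th.L, leaving out 1 library gave differences of -12.0 to -6.88 points and exact permutation p of 0.015 to 0.09. This alternative was chosen after seeing the data, as was the comparison itself, and the p-values do not allow for that. The replicate block by same-numbered pairs, also added, gave -10.2 points.

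Counts over all genes moved more. Against 0, 20 and 39 genes at stage 45, stage 47 and over both stages, DESeq2 called 77, 69 and 147, the replicate block 16, 51 and 121, and the block within each stage 268, 171 and 599. Without control replicates 1, 2 and 3 of stage 47 the stage 47 count was 0, 2 and 1, without treated replicates 1, 2 and 3 it was 12, 6 and 11, and without any 1 library the count over both stages was 16 to 43. At stage 45 it was at most 9, without control replicate 3. Between stages, against 1689 in controls and 1314 in treated heads, the block gave 3068 and 2704, DESeq2 2313 and 1998, the groups compared alone 660 and 1260, and leaving out 1 library 429 to 1768 and 392 to 1738. The difference between treatment effects, 0 genes, gave 2 in DESeq2 and 27 under the block inside stages. Of the other named genes, that block also called the difference between the stages' effects on grk7.L (adjusted p = 0.034). That difference did not pass in the main fit, in DESeq2 (adjusted p = 0.276) or with the replicate block over the stages (0.578). The causes were not tested. All tested dopamine genes but ddc.L had at most 73 counts in any library, and a variance between replicates up to 2.73 times that of counting error. How far depth and how far variation between samples set the limits was not tested.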
